A study of Tamarix ramosissima and Tamarix chinensis with 11 samples.

Results

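A set of 138 genes, of 117867 assembled from the leaves of 2 saltcedars, was lower in every water deficit plant of *T. ramosissima* than in every well-watered plant, while its mean level in *T. chinensis* stayed within a narrow band. Members were chosen from measured values. Counts were scaled to CPM (the count of a gene as a share of the total count of its library, times 1000000), and the response was the log2 ratio of the group means after adding 1 CPM to each. A member had a mean of at least 3 CPM in the *T. ramosissima* controls, a log2 ratio of -1 or lower in *T. ramosissima*, no overlap between the *T. ramosissima* groups, and a log2 ratio between -0.4 and 0.4 in *T. chinensis*. These 2 contrasts, and the interaction built from them, therefore describe how the set was made. Fold changes, intervals and counts of members passing a test in them are given as description only.

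The libraries came from seedlings of *Tamarix chinensis*, grown from New Mexico seed, and *Tamarix ramosissima*, grown from Montana seed. The plants were 14 weeks old when the treatment began in growth chambers at 25 °C. Control plants (C) were kept watered, and water deficit plants (WD) received no water until they wilted, on day 10 in *T. chinensis* and day 17 in *T. ramosissima*. Each library was 1 plant, and each group had 3 plants apart from the 2 controls of *T. chinensis*. Species, seed source and day of harvest cannot be told apart in this design.

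*Tamarix* species are deep-rooted shrubs of river banks and saline soils with scale-like leaves that carry salt glands. When soil water runs out, leaves generally close their stomata under the hormone abscisic acid, slow photosynthesis and growth, and lower the transcripts of many genes that serve these processes, while protective proteins and osmolyte synthesis rise. Wilting is the loss of turgor, so plants taken at wilting are matched by visible state and not by time. Neither names nor sequences come with the identifiers, so members are given by identifier without a role, and leaf markers were not checked. In an identifier such as TRINITY_DN30586_c0_g3, the part before g is the assembly component, a connected group of contigs, and g is the gene within it. Alleles, paralogs or pieces of 1 transcript can be separate genes of this kind, and the estimated counts of similar contigs are uncertain for that reason.

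Total counts ranged from 10245008 to 15655257 per library, so that 1 CPM was more than 10 fragments. The TMM scaling factors ranged from 0.832 to 1.09. Every pair of replicates differed beyond counting error (the median chi-square of a gene was 1.80 to 6.12), so each library counted as its own sample.

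Of the 117867 genes, 20174 had at least 3 CPM in the *T. ramosissima* controls, 1714 of these had a log2 ratio of -1 or lower, and 1492 of those also had groups that did not overlap. Among these 1492 repressed genes, 1328 (89.0%) were below the band in *T. chinensis*, 1059 of them at a log2 ratio of -1 or lower as well. The 138 members were 9.25% of the repressed genes, and 26 genes lay above the band. Of the 20174 genes expressed in the *T. ramosissima* controls, 8754 (43.4%) lay in the band. The count changed with the plants used, as leaving out *T. ramosissima* control 1 gave 223 members and leaving out *T. ramosissima* WD 1 gave 218. Leaving out a *T. ramosissima* plant also eases the condition of no overlap. Only 16 members met the rule in all 11 runs with 1 library left out.

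Members lay in 133 assembly components, 5 of which held 2 members. Their mean level in the *T. ramosissima* controls ranged from 3.14 to 601 CPM with a median of 9.71 CPM, and 29 members lay between 3 and 5 CPM, 41 between 5 and 10, 42 between 10 and 30, 13 between 30 and 100 and 13 above. Under water deficit the median was 2.80 CPM, and 21 members were under 1 CPM. The log2 ratio in *T. ramosissima* ranged from -3.98 to -1.0 with a median of -1.30, against -1.52 for the 1354 other repressed genes. It was -1.5 or lower in 42 members, -2 or lower in 18 and -3 or lower in 2. In *T. chinensis* the medians were 7.70 CPM in the controls and 7.01 CPM under water deficit. Inside the band, 88 members had a log2 ratio below 0, 41 lay within 0.1 of 0, 47 were below -0.2 and 18 above 0.2.

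Summed over the members, the *T. ramosissima* controls had 5114, 4378 and 4585 CPM and the WD plants had 1798, 1672 and 1414 CPM. The *T. chinensis* controls had 4549 and 4590 CPM and the WD plants 3196, 4847 and 4502 CPM. The sum in the 3 *T. ramosissima* WD plants was below that of all other libraries, and the lowest *T. chinensis* sum was that of WD plant 1. In leaf RNA, fewer cells that express a gene and less of its RNA per cell cannot be told apart.

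The most abundant members led this sum. TRINITY_DN35544_c2_g2 had 718, 550 and 535 CPM in the *T. ramosissima* controls and 226, 215 and 148 CPM in the WD plants. In *T. chinensis* it had 497 and 717 CPM in the controls and 370, 619 and 418 CPM under water deficit. The *T. chinensis* groups overlapped, whereas the highest *T. ramosissima* WD plant was far below the lowest control. Its log2 fold change in *T. ramosissima* was -1.65 (SE 0.33), and 32.7% of its control level was left.

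TRINITY_DN30586_c0_g3 had 390, 316 and 286 CPM in the *T. ramosissima* controls and 135, 125 and 95.7 CPM in the WD plants, with 286 and 381 CPM in the *T. chinensis* controls and 224, 358 and 257 CPM in its WD plants. A second gene of the same component, TRINITY_DN30586_c0_g1, was also a member, with a mean of 210 ± 29.2 CPM (SD, n = 3) in the controls and 75.4 ± 17.8 CPM (SD, n = 3) in the WD plants of *T. ramosissima* and 197 ± 48.8 CPM (SD, n = 2) against 187 ± 45.3 CPM (SD, n = 3) in *T. chinensis*. TRINITY_DN25959_c1_g4 went from 265 ± 34.0 to 93.8 ± 21.0 CPM (SD, n = 3 each) in *T. ramosissima* and stood at 255 ± 49.3 CPM (SD, n = 2) and 222 ± 54.4 CPM (SD, n = 3) in *T. chinensis*. These 3 genes and TRINITY_DN35544_c2_g2 kept near-constant proportions in all 11 libraries. The ratio of TRINITY_DN30586_c0_g3 to TRINITY_DN30586_c0_g1 lay between 1.40 and 1.76, that of TRINITY_DN25959_c1_g4 to TRINITY_DN30586_c0_g3 between 0.737 and 0.828, and that of TRINITY_DN35544_c2_g2 to TRINITY_DN30586_c0_g3 between 1.54 and 1.88. The 4 genes were compared after their values were seen, and whether they share sequence was not tested.

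Per transcript length, in TPM, which divides counts by transcript length, the order at the top changed. TRINITY_DN25959_c1_g4 had the highest control mean of the 8 members with most CPM, at 718 TPM in *T. ramosissima*, ahead of TRINITY_DN30586_c0_g3 at 644 TPM and TRINITY_DN35544_c2_g2 at 606 TPM. The SDs of these 3 levels, 74.4, 90.0 and 99.5 TPM (n = 3 each), were as large as the gaps between neighbours. The 3 genes were measured in the same plants, so these SDs do not measure how certain the order is.

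**Figure D1:**
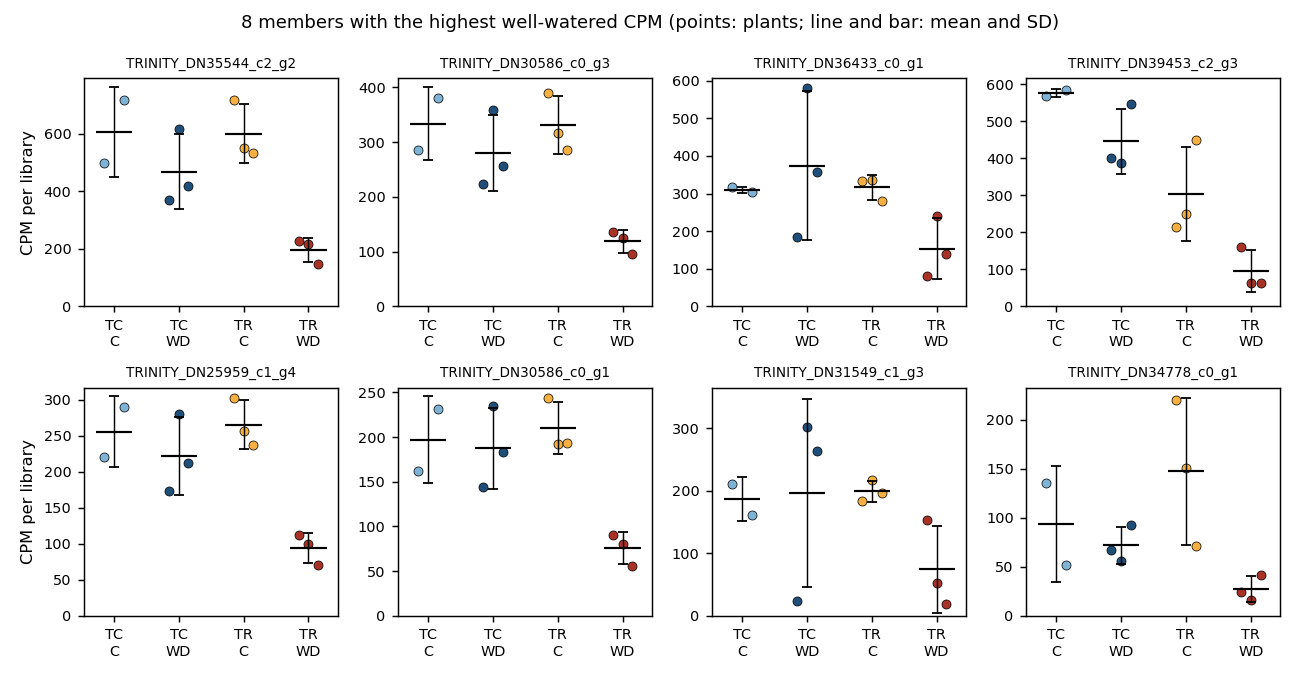
CPM in each plant (points) for the 8 members with the highest mean in the *T. ramosissima* controls, by species (TC, *T. chinensis*; TR, *T. ramosissima*) and treatment (C, control; WD, water deficit), with group mean and SD. The 3 TR WD points lie below the TR C points in all 8 panels, while TC WD plants of TRINITY_DN31549_c1_g3 spread from 23.4 to 302 CPM.

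Other abundant members were less even among plants. TRINITY_DN31549_c1_g3 had 153, 51.7 and 18.1 CPM in the *T. ramosissima* WD plants, below its 183, 217 and 197 CPM in the controls. In *T. chinensis* it had 211 and 161 CPM in the controls but 23.4, 302 and 263 CPM under water deficit, so WD plant 1 stood far under both controls while the group mean stayed in the band. Its component partner TRINITY_DN31549_c1_g1 was also lowest in WD plant 1 of *T. chinensis*, with 7.42, 62.7 and 68.0 CPM in the WD plants. The 95% interval of the *T. chinensis* log2 fold change of TRINITY_DN31549_c1_g3 ran from -2.16 to 2.36, which includes its *T. ramosissima* value of -1.45.

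TRINITY_DN36433_c0_g1 had 185, 581 and 357 CPM in the *T. chinensis* WD plants around control values of 316 and 305 CPM. In *T. ramosissima* its mean went from 316 ± 32.3 to 154 ± 81.3 CPM (SD, n = 3 each). TRINITY_DN39453_c2_g3 was higher in both *T. chinensis* controls, at 569 and 585 CPM, than in the *T. ramosissima* controls, at 215, 249 and 449 CPM. Its WD plants had 401, 387 and 548 CPM in *T. chinensis*, all below both controls, and 161, 63.1 and 64.3 CPM in *T. ramosissima*. TRINITY_DN34778_c0_g1 had 220, 150 and 70.6 CPM in the *T. ramosissima* controls and 24.6, 16.1 and 41.8 CPM in the WD plants, a log2 fold change of -2.51 (SE 0.54).

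The 8 lowest ratios belonged to members with *T. ramosissima* control means from 7.26 to 127 CPM. TRINITY_DN38044_c0_g1 was at 0 in all 3 *T. ramosissima* WD plants and at 28.3, 0.254 and 15.8 CPM in the controls. Against a floor of 3 counts over the WD group, its mean was at least 176-fold lower, with the caveat that control 2 was itself near 0. In *T. chinensis* it had 6.95 and 53.3 CPM in the controls and 3.32, 82.9 and 5.24 CPM under water deficit, so the level varied widely among plants of every group in which it was detected.

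TRINITY_DN34058_c0_g1 was steadier in *T. chinensis*, at 3.34 and 3.90 CPM in the controls and 3.12, 4.36 and 2.26 CPM under water deficit. In *T. ramosissima* it had 22.1, 6.02 and 10.4 CPM in the controls and 0.561, 0.980 and 0.336 CPM in the WD plants, which left 4.86% of the control mean. TRINITY_DN28271_c0_g3 had 12.7, 5.94 and 10.1 CPM in the *T. ramosissima* controls and 0.240, 0.624 and 0.671 CPM in the WD plants. All 3 *T. chinensis* WD plants of that gene, at 5.56, 8.25 and 4.16 CPM, were above its *T. ramosissima* WD plants.

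TRINITY_DN28816_c0_g1 combined a high level with even plants. It had 122, 102 and 157 CPM in the *T. ramosissima* controls and 22.6, 19.1 and 23.2 CPM in the WD plants, a log2 fold change of -2.58 (SE 0.24). Its *T. chinensis* values were 88.1 and 72.5 CPM in the controls and 55.3, 43.9 and 113 CPM under water deficit, with WD plants on both sides of the controls.

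TRINITY_DN34560_c3_g1 had 4.0, 0.594 and 17.2 CPM in the *T. ramosissima* controls and 0, 0 and 0.168 CPM in the WD plants, so its control mean came mostly from 1 plant. TRINITY_DN29621_c1_g1 had 20.7, 10.0 and 6.66 CPM in the *T. ramosissima* controls and 3.20, 0.802 and 0.0839 CPM in the WD plants, and its *T. chinensis* WD plants spread from 3.71 to 20.5 CPM.

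In the edgeR quasi-likelihood fit of the *T. ramosissima* libraries, 0 of 138 members and 0% of the 29025 genes tested were called. The thresholds were those of the study, an FDR of 0.005 and a 2-fold change. The paper did report genes at these thresholds in this species, from its own edgeR run, so the 0 belongs to the fit used here. By the rule the groups did not overlap in any member, where 15.1% of tested genes had every WD plant below every control. At an FDR of 0.05, 41 members were lower under water deficit, where 2.29% of all tested genes were called lower. At an unadjusted p under 0.05 there were 130 members, against 11.1% of tested genes called lower. The rule had used this contrast, so nothing is read from these counts. The 41 became 2, 8 and 0 without *T. ramosissima* control 1, 2 and 3, and 34, 16 and 1 without WD plant 1, 2 and 3. With DESeq2, 61 members passed at 0.005 and 109 at 0.05.

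In *T. chinensis*, 130 members passed the filter on low counts and 0 of them passed an FDR of 0.005 or 0.05 or an unadjusted p under 0.05, with edgeR or with DESeq2 at either FDR. Of all 28210 genes tested, 0.347% and 15.6% were called at those FDRs, and 19.5% were lower and 17.3% higher at the unadjusted p. The rule required small ratios here. The 95% interval of the log2 fold change nevertheless included -1 in 88 of the 130 members, lay wholly between -1 and 1 in 30, and included the member's own *T. ramosissima* fold change in 25. Because members were chosen by this ratio, the intervals are a description and do not show that any level did not move. Only 2 control plants entered these fits.

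Plant by plant, the members were flat in *T. chinensis* mainly as a mean. Relative to the mean of its own controls, the median log2 value of the members was -0.33 in WD plant 1, -0.04 in WD plant 2 and -0.05 in WD plant 3. The same medians over the other repressed genes were -2.0, -1.70 and -1.35. In *T. ramosissima* the medians were -1.39, -1.38 and -1.43. *T. chinensis* WD plant 1 held the lowest of the 3 values in 67 members (48.6%), where it did so in 36.4% of all genes expressed in the *T. ramosissima* controls. It was at -1 or lower in 25 members, against 14 for WD plant 2 and 2 for WD plant 3.

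Every *T. chinensis* WD plant stayed within 0.4 of the control mean on this log2 scale in 23 members (16.7%), and within 1 in 97. At least 1 plant was at -1 or lower in 40 members (29.0%), at 1 or higher in 6, and both occurred in 5. In *T. ramosissima*, every WD plant was at -1 or lower in 67 members, and in 38 of the 41 members called at an FDR of 0.05. The *T. chinensis* groups overlapped in 130 members, with all WD plants below all controls in 7 and above in 1. Over all genes tested in *T. chinensis*, 29.4% were separated downwards and 25.6% upwards.

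**Figure D2:**
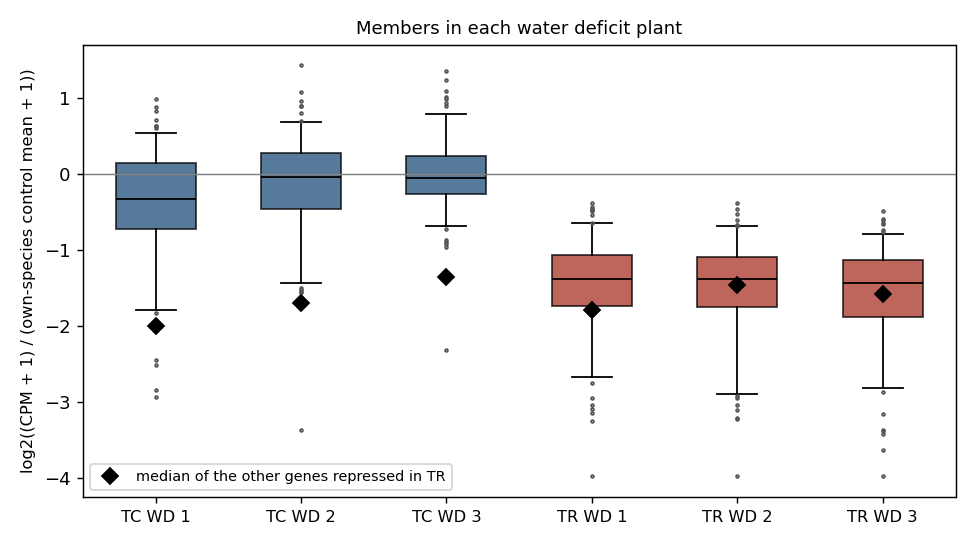
Log2 value of the 138 members in each water deficit plant relative to the mean of its own-species controls, after adding 1 CPM. Boxes show quartiles and median, whiskers span all but an equal small share of members at each end, and dots are those members. Diamonds mark the median of the 1354 other repressed genes, which was -2.0, -1.70 and -1.35 in the 3 *T. chinensis* plants, where the members' medians were -0.33, -0.04 and -0.05.

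Leaving out each of the 11 libraries in turn, 16 members met the rule in all runs, 37 in 10 of them, and 25 in fewer than 8. The 16 included TRINITY_DN34058_c0_g1 and TRINITY_DN30586_c0_g1, described above. TRINITY_DN29379_c2_g1 was the most even of them in *T. chinensis*, at 13.6 and 13.4 CPM in the controls and 15.2, 13.4 and 12.9 CPM under water deficit, against 9.78, 7.21 and 12.6 CPM in the *T. ramosissima* controls and 4.01, 4.37 and 2.35 CPM in the WD plants. TRINITY_DN33079_c0_g1 had 20.2, 6.61 and 13.2 CPM in the *T. ramosissima* controls and 1.28, 0.535 and 3.61 CPM in the WD plants. Its *T. chinensis* plants lay between 17.8 and 24.5 CPM in both groups. Of the 16 members, 7 were among the 41 called in *T. ramosissima* at an FDR of 0.05. TRINITY_DN29379_c2_g1 and TRINITY_DN33079_c0_g1 were singled out after their values were seen.

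The species by treatment interaction asks whether the 2 responses differ, with negative values for a larger decrease in *T. ramosissima*. No member, 0 of 138, passed an FDR of 0.005 or 0.05 in the edgeR fit, where 0.00639% and 0.0639% of 31320 tested genes were called. The smallest adjusted p of a member was 0.0702. At an unadjusted p under 0.05 there were 85 members, all with a larger decrease in *T. ramosissima*, where 5.03% of tested genes were in that direction. The rule fixed both ratios that this contrast compares, so nothing is read from these counts. DESeq2 called 5 members at 0.005 and 17 at 0.05, and edgeR without *T. ramosissima* WD 1 called 5 at 0.05. The estimate was below 0 in 136 of 138 members, which the rule largely fixed, and its 95% interval lay wholly below 0 in 85. The exceptions were TRINITY_DN34041_c1_g2 and TRINITY_DN32710_c2_g2, the latter named after its values were seen.

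The smallest interaction p belonged to TRINITY_DN27514_c0_g1 and TRINITY_DN28271_c0_g3, and their values are given as a description. TRINITY_DN27514_c0_g1 had 10.6, 15.9 and 23.5 CPM in the *T. ramosissima* controls and 3.12, 2.14 and 2.85 CPM in the WD plants. It had 4.52 and 5.30 CPM in the *T. chinensis* controls and 3.61, 5.81 and 4.61 CPM in its WD plants. The *T. ramosissima* controls were thus the high group, and the 2 species lay closer together under water deficit. Its interaction log2 value was -2.60 (95% interval -3.58 to -1.62), and that of TRINITY_DN28271_c0_g3 was -4.59 (-6.37 to -2.81).

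TRINITY_DN37527_c1_g1 showed the opposite layout, with the *T. ramosissima* WD plants as the low group. It had 57.1 and 46.5 CPM in the *T. chinensis* controls, 35.3, 40.3 and 46.7 CPM in its WD plants, 30.8, 29.8 and 43.8 CPM in the *T. ramosissima* controls and 13.5, 11.7 and 13.1 CPM in the WD plants. The interaction was -1.20 (95% interval -1.84 to -0.55). In TRINITY_DN38756_c1_g2 the *T. ramosissima* controls were again the high group, at 16.1, 21.5 and 20.6 CPM. The *T. ramosissima* WD plants, at 9.86, 4.63 and 6.96 CPM, overlapped the 5 *T. chinensis* plants, at 6.0 to 13.2 CPM.

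**Figure D3:**
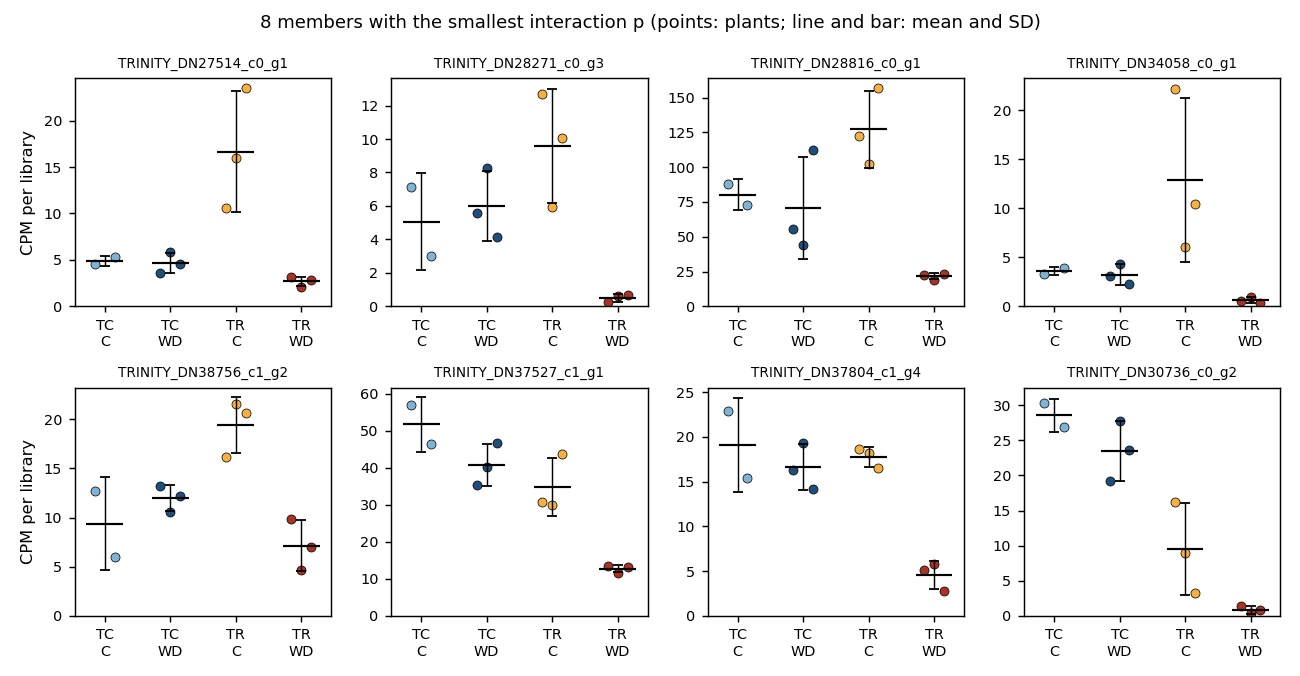
CPM in each plant (points), with group mean and SD, for the 8 members with the smallest interaction p, by species (TC, *T. chinensis*; TR, *T. ramosissima*) and treatment (C, control; WD, water deficit). In TRINITY_DN27514_c0_g1 the TR controls, at 10.6 to 23.5 CPM, stand above all other groups, whereas in TRINITY_DN37527_c1_g1 the TR WD plants, at 11.7 to 13.5 CPM, stand below them.

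The 2 species were also compared within each treatment. The *T. ramosissima* controls set the minimum level of the rule, both *T. ramosissima* groups its depth, and both *T. chinensis* groups its band. These comparisons are therefore not independent of the choice. In the controls the median log2 ratio of *T. chinensis* to *T. ramosissima* over the members was -0.25, against 0.02 over all expressed genes and -0.24 over the other repressed genes. The *T. chinensis* control mean was within 1.5-fold of the *T. ramosissima* one in 91 members, further below it in 37 and further above in 10. Every *T. chinensis* control was below every *T. ramosissima* control in 42 members (30.4%) and above in 14, while 8.46% and 14.4% of all tested genes were separated in these directions. With edgeR, 0 members passed an FDR of 0.005 or 0.05, where 0% and 0.00709% of tested genes were called. The smallest member adjusted p was 0.108, and 28 members were lower and 5 higher in *T. chinensis* at an unadjusted p under 0.05, where 4.56% and 3.16% of tested genes were. DESeq2 called 9 at 0.005 and 12 at 0.05.

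Under water deficit the order turned, a shift that the rule largely fixed by setting the response of each species. The counts of members given here are therefore description only. The median log2 ratio of *T. chinensis* to *T. ramosissima* was 1.03, against -0.06 over all expressed genes and -0.30 over the other repressed genes. Every *T. chinensis* WD plant was above every *T. ramosissima* WD plant in 69 members and below in 5, where 14.2% and 15.3% of tested genes were separated. With edgeR, 0 members passed an FDR of 0.005, as did 0% of all genes tested, and at an unadjusted p under 0.05 there were 76 higher and 3 lower, where 12% and 12.9% of tested genes were. DESeq2 called 31 at 0.005. At an FDR of 0.05, 22 of the 133 members tested were called, 19 higher and 3 lower in *T. chinensis*, where 1.75% of tested genes were called higher and 2.19% lower. The 22 became 0, 8 and 0 without *T. chinensis* WD plant 1, 2 and 3, and 24, 0 and 0 without *T. ramosissima* WD plant 1, 2 and 3.

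Members also differed in where the *T. chinensis* control stood. Its mean was above the *T. ramosissima* control mean in 48 members, between the *T. ramosissima* WD and control means in 81, and below the WD mean in 9. TRINITY_DN30736_c0_g2 had the highest ratio of the mean over all *T. chinensis* plants to the *T. ramosissima* control mean, each plus 1 CPM. It had 30.3 and 26.9 CPM in the *T. chinensis* controls and 19.2, 27.7 and 23.6 CPM in the WD plants, against 16.3, 8.90 and 3.26 CPM and then 1.44, 0.356 and 0.755 CPM in *T. ramosissima*. Its log2 difference between species under water deficit was 4.81 (SE 0.46).

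TRINITY_DN39546_c1_g1 had 21.0 and 51.5 CPM in the *T. chinensis* controls and 22.0, 64.0 and 46.6 CPM in its WD plants. In *T. ramosissima* it had 19.8, 14.4 and 15.7 CPM in the controls and 5.53, 5.17 and 1.93 CPM in the WD plants. TRINITY_DN39546_c0_g1, from a neighbouring component of the same read cluster, had 3.36 ± 0.925 CPM in the *T. ramosissima* controls and 0.734 ± 0.137 CPM in the WD plants (SD, n = 3 each). The log2 difference between species under water deficit was 3.40 (SE 0.54) for the first and 3.62 (SE 0.55) for the second. TRINITY_DN34635_c0_g1 had 13.5 and 11.5 CPM in the *T. chinensis* controls and 24.0, 12.8 and 13.3 CPM in its WD plants, so the higher WD mean came from 1 plant, and it had a log2 difference of 3.05 (SE 0.41) under water deficit.

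**Figure D4:**
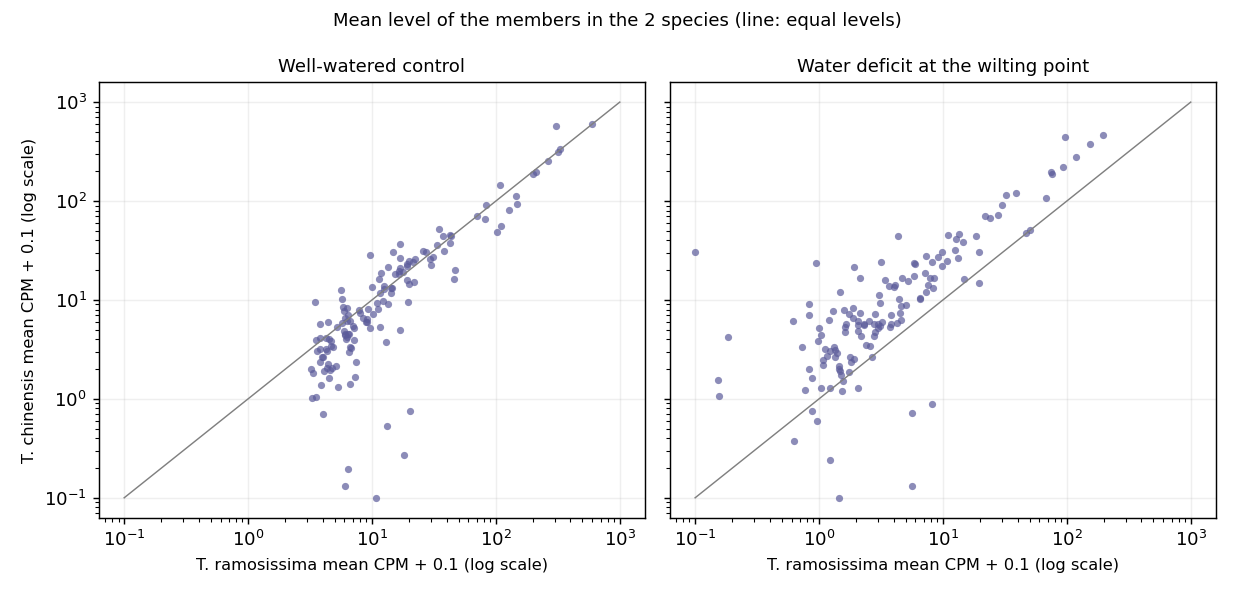
Mean CPM plus 0.1 of each of the 138 members (points) in *T. chinensis* against *T. ramosissima*, in controls (left) and under water deficit (right), both axes on a log scale, with the line of equal levels. Points scatter around or below the line in the controls (median log2 ratio -0.25). They lie mostly above it under water deficit (median 1.03), a shift that the rule largely fixed.

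At the other end, 8 members had a mean under 1 CPM over the 5 *T. chinensis* plants, 24 lay between 1 and 3 CPM and 106 were at 3 CPM or more. For the 8, a flat *T. chinensis* response says only that a level near 0 stayed near 0. TRINITY_DN34041_c1_g2 had 0.219 and 0.128 CPM in the *T. chinensis* controls and 0, 0 and 0.0904 CPM in the WD plants, against 10.3, 10.5 and 33.9 CPM and then 2.01, 6.79 and 7.65 CPM in *T. ramosissima*. Its log2 difference between species under water deficit was -7.10 (SE 1.02).

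TRINITY_DN27944_c1_g2 had 0.361 and 0.940 CPM in the *T. chinensis* controls and 13.6, 15.3 and 32.1 CPM in the *T. ramosissima* ones. TRINITY_DN31293_c4_g2 had 0.452 and 0.401 CPM in the first and 10.8, 9.0 and 19.6 CPM in the second. Both were also lower in *T. chinensis* under water deficit, by log2 values of -3.27 (SE 0.47) and -3.19 (SE 0.53), and made up, with TRINITY_DN34041_c1_g2, the 3 members called lower there. TRINITY_DN30820_c0_g1 was at 0 in both *T. chinensis* controls and at 9.14, 3.05 and 20.1 CPM in the *T. ramosissima* controls. The other gene of its component, TRINITY_DN30820_c0_g2, had 32.1 and 54.4 CPM in the *T. chinensis* controls and 0.976, 10.5 and 5.60 CPM in the WD plants. Summed over all genes of the component, the *T. chinensis* log2 ratio was -2.67 for TRINITY_DN30820_c0 and -1.20 for TRINITY_DN27944_c1. It was -0.64 for TRINITY_DN31293_c4 and 0.68 for TRINITY_DN34041_c1, so all 4 sums lay outside the band.

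All 8 of these members were highest in *T. ramosissima* control 3, which held the highest control value in 55 of the 138 members. Relative length, worked out from the ratio of count to TPM and set to 1 at the median of all genes expressed in the *T. ramosissima* controls, was under 0.2 in 4 of the 8. It was under 0.2 in 16 of all members (11.6%) and in 5.25% of the expressed genes. The median relative length was 0.792 for the members and 0.968 for the other repressed genes. The part of short contigs and of control 3 in these values was not tested.

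Of the 138 members, 60 shared a component with another gene of at least 1 CPM that was not a member. A component with more than 1 gene held 58.7% of the members, against 65.6% of all expressed genes and 56.4% of the other repressed genes. Of these 93 other genes, 25 (26.9%) had a log2 ratio of -1 or lower in *T. ramosissima* and 41 (44.1%) had a positive one. Over the 26990 genes of that level these shares were 6.95% and 51.7%. The median log2 ratio was -0.31 for the former and 0.02 for the latter.

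Some of these genes were lower together with the member. TRINITY_DN28271_c0_g7, beside the member TRINITY_DN28271_c0_g3, had 105, 42.8 and 47.9 CPM in the *T. ramosissima* controls and 5.69, 16 and 7.55 CPM in the WD plants. In *T. chinensis* it had 81.2 and 40.6 CPM in the controls and 30.5, 44.6 and 29.5 CPM in the WD plants, a log2 ratio of -0.79 that is outside the band. TRINITY_DN29621_c1_g2, beside TRINITY_DN29621_c1_g1, had 16.6, 17.7 and 13.9 CPM in the *T. ramosissima* controls and 5.77, 0.356 and 0.839 CPM in the WD plants, and its *T. chinensis* log2 ratio was -0.52. Both genes were separated in *T. ramosissima*, and both fell short of the rule only in *T. chinensis*.

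Other genes had a different layout. TRINITY_DN37804_c1_g4 had 18.6, 18.2 and 16.5 CPM in the *T. ramosissima* controls and 5.13, 5.79 and 2.77 CPM in the WD plants. TRINITY_DN37804_c1_g3 was nearly undetected in the *T. ramosissima* controls, at a mean of 0.248 ± 0.430 CPM, and stood at 15 ± 15.9 CPM in the WD plants (SD, n = 3 each), where 1 plant was at 0. TRINITY_DN37804_c1_g1 went from 65.0 ± 9.34 to 23.9 ± 6.36 CPM (SD, n = 3 each) in *T. ramosissima*. TRINITY_DN37804_c1_g1 was thus lower together with the member in *T. ramosissima*, while TRINITY_DN37804_c1_g3 had a higher mean under water deficit there. In *T. chinensis* the log2 ratio was -0.19 for the member, -0.67 for TRINITY_DN37804_c1_g3 and -1.28 for TRINITY_DN37804_c1_g1.

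Components of 3 other members also held a gene with a higher mean under water deficit in *T. ramosissima*. TRINITY_DN39718_c0_g1, beside the member TRINITY_DN39718_c0_g2, went from 21.6 ± 5.81 to 57.1 ± 24.0 CPM (SD, n = 3 each). TRINITY_DN38000_c1_g1, beside TRINITY_DN38000_c1_g3, went from 5.72 ± 1.95 to 23.0 ± 13.7 CPM, and in *T. chinensis* from 9.20 ± 2.44 to 63.2 ± 18.9 CPM. TRINITY_DN25731_c1_g2, beside TRINITY_DN25731_c1_g1, went from 16.7 ± 4.88 to 42.0 ± 6.88 CPM in *T. ramosissima* and from 20.7 ± 1.70 to 102 ± 52.5 CPM in *T. chinensis*. The pairs named here, lower or higher, were chosen after their values were seen.

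In the component with the most abundant pair of members, the third gene had a smaller decrease in *T. ramosissima*. TRINITY_DN30586_c0_g2, which is not a member, went from 1506 ± 176 to 868 ± 150 CPM (SD, n = 3 each) in *T. ramosissima* and from 1566 ± 151 (SD, n = 2) to 1188 ± 183 CPM (SD, n = 3) in *T. chinensis*. Its mean was lower under water deficit in both species. TRINITY_DN25959_c1_g1, beside the member TRINITY_DN25959_c1_g4, had log2 ratios of -0.83 in *T. ramosissima* and -0.82 in *T. chinensis*. Summed over all genes of the component, TRINITY_DN30586_c0 had log2 ratios of -0.95 in *T. ramosissima* and -0.34 in *T. chinensis*. The sums were -1.16 and -0.42 for TRINITY_DN25959_c1, and -1.16 and -0.42 for TRINITY_DN35544_c2. None of these 3 sums met the rule.

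**Figure D5:**
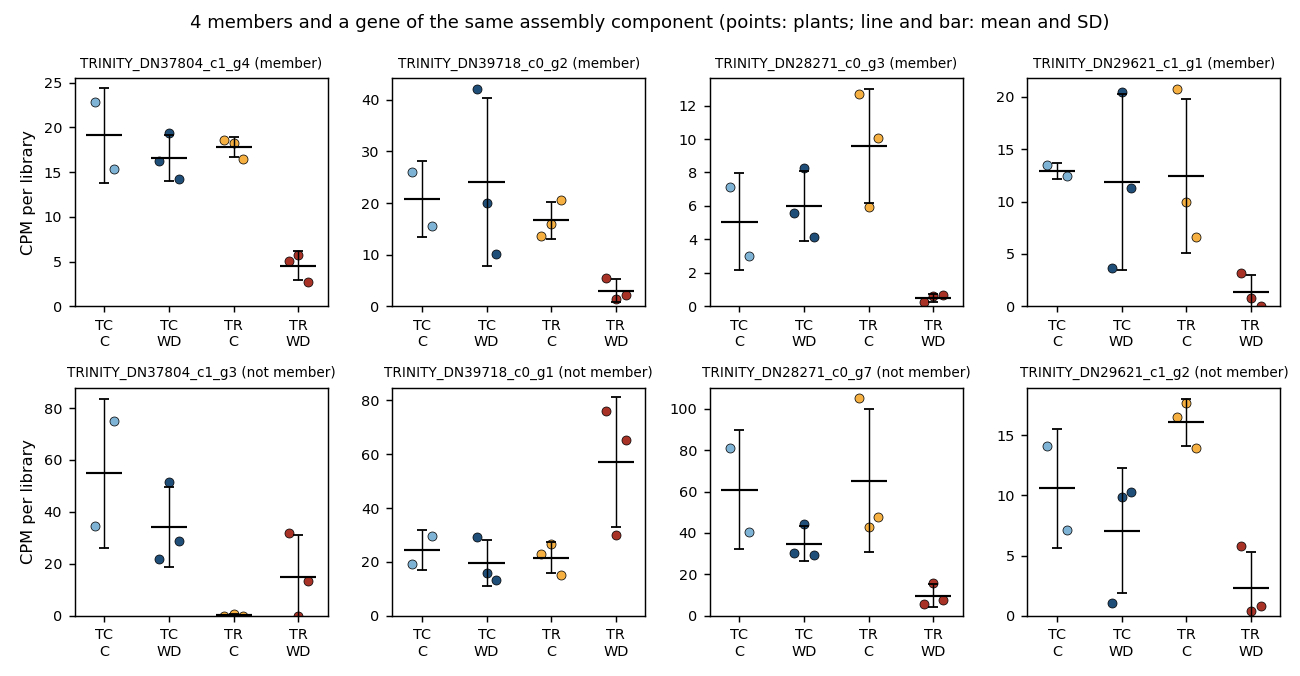
CPM in each plant (points), with group mean and SD, for 4 members (top, each lower in TR WD than in TR C) and another gene of the same assembly component (bottom), by species (TC, *T. chinensis*; TR, *T. ramosissima*) and treatment (C, control; WD, water deficit). The gene below has a higher TR WD mean in the 2 left pairs, for example 57.1 against 21.6 CPM for TRINITY_DN39718_c0_g1, and is lower with its member in the 2 right pairs, for example 9.76 against 65.2 CPM for TRINITY_DN28271_c0_g7.

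In 57 of the 133 components the member was the only gene. In the other 76, counts were summed over all genes of the component. In *T. ramosissima*, 34 sums had a log2 ratio of -1 or lower and 17 were above -0.4. In *T. chinensis*, 31 sums left the band. A sum of -1 or lower in *T. ramosissima* together with one inside the band in *T. chinensis* was found in 21. The 2 members of a component had like ratios in the following pairs. TRINITY_DN38017_c0_g2 went from 18.9 ± 4.62 to 7.09 ± 1.53 CPM and TRINITY_DN38017_c0_g3 from 3.53 ± 1.02 to 1.13 ± 0.427 CPM in *T. ramosissima* (SD, n = 3 each). TRINITY_DN39886_c1_g2 went from 12.5 ± 2.05 to 2.95 ± 0.870 CPM and TRINITY_DN39886_c1_g4 from 8.34 ± 1.29 to 1.64 ± 0.409 CPM.

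At the edges of the rule, members and non-members had near-equal values. TRINITY_DN27704_c0_g1 and TRINITY_DN37704_c0_g3 were the members nearest to the *T. ramosissima* limit of -1, and TRINITY_DN29948_c0_g1 at -0.998 and TRINITY_DN39215_c1_g3 at -0.997 lay just outside it. For the control level, TRINITY_DN29804_c2_g1 at 3.14 CPM and TRINITY_DN23096_c0_g1 at 3.20 CPM were inside, and TRINITY_DN37617_c0_g2 at 2.98 CPM was outside. At the lower edge of the *T. chinensis* band, TRINITY_DN22518_c0_g1 and TRINITY_DN36576_c0_g1 were inside at -0.40 and TRINITY_DN25730_c0_g1 was outside at -0.41. At the upper edge, TRINITY_DN27704_c0_g1 and TRINITY_DN34635_c0_g1 were inside at 0.39 and TRINITY_DN37204_c0_g1 was outside at 0.42. In 8 members the lowest *T. ramosissima* control was less than 1.1 times the highest WD plant, and in 87 it was at least 1.5 times that plant.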

How the data were processed

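The authors trimmed reads with Prinseq, assembled both species together with Trinity, aligned each library with bowtie and estimated abundance with RSEM (its version is not stated in the sources used). The deposited expected counts are estimated fragments per assembled gene, not normalized. The authors also deposited TPM, which RSEM scales by length and library. An assembled gene is a group of contigs, and fragments that fit several contigs were shared out before deposit.

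Members were found from CPM. For tests the expected counts were rounded and fitted with edgeR 4.0.16 in R 4.3.3 (TMM, quasi-likelihood, Benjamini-Hochberg adjustment over all tested genes, CPM above 1 in at least 2 libraries compared). Each pair of groups was fitted alone and the interaction on all libraries. Calls needed an FDR up to 0.005 and a change of at least 1 on the log2 scale, with 0.05 as a second level. SEs came from the fold change and the F statistic. The alternatives included DESeq2 1.42.0, limma-voom (limma 3.58.1), other scalings and filters, and each library left out.

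Members, rule and comparisons were chosen with earlier results of these data known. Named members were the 8 highest in control level, lowest in *T. ramosissima* ratio and smallest in interaction p, the 4 at each end of the ratio of the *T. chinensis* mean to the *T. ramosissima* control mean, pairs in the 4 components with 2 members of highest summed level, and those nearest the thresholds, 37 in all. Other named genes were chosen after their values were seen. Each library was 1 plant grown in its own container, and p-values measure the spread between plants. Containers stood together in tubs, and how the plants were divided among tubs and chambers is not stated.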

Additional observations from a re-analysis of the deposited data

Results flagged for a closer look

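TRINITY_DN32184_c0_g1 was the single member whose plants separated in opposite directions in the 2 species. It had 4.43 and 4.34 CPM in the *T. chinensis* controls and 6.05, 6.95 and 5.15 CPM in the WD plants, each above both controls. In *T. ramosissima* it had 3.14, 8.65 and 6.13 CPM in the controls and 2.79, 3.03 and 1.43 CPM in the WD plants, each below every control. The interaction log2 value was -1.78 (edgeR adjusted p = 0.245), which did not pass the threshold. The *T. ramosissima* separation was required by the rule, and control 1 stood only slightly above WD plant 2.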

How the results depend on the processing

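The number of members was 138 and became 68 with a pseudocount of 5 CPM, 73 with a *T. chinensis* band of 0.2 and 68 with a control minimum of 10 CPM. With each library left out it ranged from 115 to 223. At an FDR of 0.005, members called lower or higher with edgeR without a filter on low counts were 66 in *T. ramosissima*, 22 in the interaction, 18 between the controls and 56 between the WD groups. DESeq2 gave 61, 5, 9 and 31, edgeR's exact test gave 50, 8 and 30 without the interaction, for which it was not run, and 1 fit of all 4 groups gave 3 between the WD groups. An FDR of 0.05 gave 41 in *T. ramosissima* and 22 between the WD groups. All left-out counts at 0.005 were 0.

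Every setting was repeated at an FDR of 0.05, which was chosen after seeing the data. Without the filter on low counts the counts were 102, 37, 23 and 69, in the same order as above. DESeq2 gave 109, 17, 12 and 51, and the exact test 96, 12 and 52. Between the WD groups limma-voom gave 12 and 1 fit of all 4 groups 48. With each library left out the counts ranged from 0 to 34 in *T. ramosissima*, 0 to 5 in the interaction, 0 to 0 between the controls and 0 to 24 between the WD groups. In *T. chinensis* no setting called a member. The causes were not tested.

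Whether replicate numbers pair the plants cannot be told, because deviations from the mean of so few plants must sum to 0. Same-numbered plants had correlations of deviations of -0.18, -0.26 and 0.10 in *T. ramosissima* and 0.05 and 0.13 in *T. chinensis*. Between different numbers these ranged from -0.08 to 0.26 in *T. ramosissima* and from -0.13 to 0.11 in *T. chinensis*. With the replicate number as a block, 4 members at 0.005 and 6 at 0.05 were called between the controls, and 0 at 0.05 in *T. ramosissima* and between the WD groups. The interaction log2 value of TRINITY_DN34041_c1_g2, 0.28, became -0.10 without *T. chinensis* WD 1, -0.26 without WD 2 and 2.27 without WD 3. It rests on counts near 0.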
